A study of Mus musculus with 7 samples.

Results

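The genes described here are 10 enzymes of glycolysis and of the step from pyruvate to lactate, *Pfkm*, *Aldoa*, *Tpi1*, *Gapdh*, *Pgk1*, *Pgam2*, *Eno1*, *Eno3*, *Pkm* and *Ldha*, out of 31531 genes in the table of normalized counts. They were selected on their names as pathway members, with the lower deposited level of *Gapdh* in dyW fetuses already known, so their differences between the genotypes, and any call made on them, are given as a description and not as a test. All 10 passed the filter on low values, a mean of at least 5 normalized counts over the libraries, as did 25791 genes in all. RNA was measured in muscle fibers of epaxial muscles, which lie along the back, from 4 WT and 3 dyW mouse fetuses at E17.5, with 1 library per fetus. The dyW mice, kept on a C57BL/6 background and bred from heterozygous parents, carry a disrupted *Lama2* gene, which encodes the α2 chain of laminin, and model LAMA2-congenital muscular dystrophy. Fibers were freed with dispase and collagenase and held back by a strainer, so cells that stay attached to fibers enter the lysate as well. A normalized count is the number of uniquely mapped reads on a gene divided by 1 size factor per library. In such a lysate, fewer cells of a type cannot be told apart from less RNA per cell.

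Glycolysis converts glucose to pyruvate in the cytosol and yields ATP without oxygen. Skeletal muscle relies on it during fast contraction, and lactate dehydrogenase regenerates the NAD+ that glyceraldehyde-3-phosphate dehydrogenase, encoded by *Gapdh*, consumes. Several steps have a muscle isoform beside a widely expressed one. *Pfkm* encodes the muscle phosphofructokinase, *Pgam2* the muscle phosphoglycerate mutase and *Eno3* the muscle (β) enolase, whereas *Pfkl*, *Pfkp*, *Pgam1* and *Eno1* encode forms found in many tissues. *Gapdh* is also widely used as a reference gene on the assumption of a steady level.

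The 7 libraries differed widely, and these differences accompany each result below. Reads counted on genes numbered 470804 to 2220813 in WT and 3663905 to 18297106 in dyW. *Lama2* had normalized counts of 90.6 to 111 in the 4 WT libraries, 4.29 in dyW1 and 6.07 in dyW2, but 140 in the library labelled dyW3, which therefore goes against its label. The 20 myofiber markers made up 0.354% to 2.15% of counts in WT2, WT3 and WT4 and 0.550% and 0.538% in dyW2 and dyW3, against 0.135% in WT1 and 0.00576% in dyW1. In dyW1, 9 of these 20 markers were at 0, and *Acta1* and *Mylpf*, which encode α-actin and the fast regulatory light chain, had normalized counts of 4.09 and 11.9. The 7 cartilage markers took 17.5% of counts in WT1, where *Col2a1* alone had a normalized count of 415687, and at most 0.215% elsewhere. The 8 erythroid markers ranged from 1.25% to 9.61% in 5 libraries, and made up 0.00382% in WT1 and 0.00106% in dyW1. The 9 fibroblast markers made up 0.151% to 0.340% in WT and 1.48% to 1.89% in dyW. *Cacna1s*, a calcium channel subunit of the fiber, and *Nefl*, a neurofilament subunit, were at 0 in all 3 dyW libraries. Their WT values were low, 5.33 to 32.4 and 8.21 to 18.9, where 1 read was worth 2.05 to 5.33 normalized counts. Values of 0 were common in dyW, where 14209 to 19360 of the 31531 genes had a read in a library, against 25530 to 29594 in WT. The 6 endothelial markers made up 0.00968% to 0.0200% of counts in WT and 0.0300% to 0.0959% in dyW, the 7 immune markers 0.00505% to 0.0156% in WT and 0.00415% to 0.0459% in dyW and the 7 neural and Schwann markers 0.00432% to 0.00687% in WT and 9.05e-05% to 0.0350% in dyW. In limma 2 myofiber, 1 erythroid, 1 cartilage and 1 neural marker passed as lower in dyW, and 0 of any list as higher, against 18.7% and 0.0659% of all genes.

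Promoters of *Pgam2* and *Eno3* and of 2 widely expressed genes are shown because *Pgam2* and *Eno3* were both lowest in WT1 among the WT libraries, where *Gapdh* was highest and *Pgam1* second highest. Each run is the 250 bases before the start site in RefSeq (GRCm38.p6), written 5′ to 3′ and placed on GRCm39 by an exact match. The RefSeq start site lay 782 bases inside the GENCODE gene for *Gapdh* and 1409 bases inside it for *Eno3*, so these windows lie inside the annotated genes, whereas those of *Pgam2* and *Pgam1* precede the gene. *Pfkm*, the muscle isoform that was second highest in WT1 among the WT libraries, has 4 start sites in that table and is not shown.
Pgam2, chr11:5753797-5754046, minus strand: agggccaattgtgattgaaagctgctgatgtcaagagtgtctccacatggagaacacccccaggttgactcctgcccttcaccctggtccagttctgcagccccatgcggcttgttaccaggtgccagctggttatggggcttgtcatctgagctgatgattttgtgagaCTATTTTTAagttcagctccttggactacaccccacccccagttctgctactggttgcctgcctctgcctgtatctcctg
Eno3, chr11:70547752-70548001, plus strand: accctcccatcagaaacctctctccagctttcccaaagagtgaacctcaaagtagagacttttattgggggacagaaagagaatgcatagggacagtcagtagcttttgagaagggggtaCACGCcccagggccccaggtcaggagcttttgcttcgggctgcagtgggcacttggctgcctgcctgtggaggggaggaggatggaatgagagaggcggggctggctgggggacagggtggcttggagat
Pgam1, chr19:41900060-41900309, plus strand: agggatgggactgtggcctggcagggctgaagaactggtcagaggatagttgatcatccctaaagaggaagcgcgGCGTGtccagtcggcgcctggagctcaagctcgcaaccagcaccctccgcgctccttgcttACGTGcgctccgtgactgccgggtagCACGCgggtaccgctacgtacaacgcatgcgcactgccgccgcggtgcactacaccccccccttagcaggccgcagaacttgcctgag
Gapdh, chr6:125142737-125142986, minus strand: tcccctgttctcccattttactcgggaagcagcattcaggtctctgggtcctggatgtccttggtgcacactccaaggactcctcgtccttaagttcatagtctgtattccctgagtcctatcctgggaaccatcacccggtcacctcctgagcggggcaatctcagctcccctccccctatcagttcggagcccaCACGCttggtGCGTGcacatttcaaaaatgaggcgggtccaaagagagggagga
Capitals mark matches, on either strand, to CTANNNNTA, the letters of a MEF2-like site, and to ACGTG and GCGTG, the core letters of a hypoxia response element. *Pgam2* alone of these 4 held CTANNNNTA, once, starting 80 bases before the start site. Of 32851 such windows in RefSeq, 19.0% held it. The E-box CANNTG, read by myogenic factors and not marked here, occurred 5 times in *Pgam2* and once in *Eno3*, and 66.2% of all windows held it. Neither the *Gapdh* nor the *Pgam1* window held an E-box. ACGTG or GCGTG occurred 2 times in *Gapdh*, once in *Eno3*, 3 times in *Pgam1* and not in *Pgam2*, against 38.6% of all windows with at least 1 match. The E-box CACGTG would contain ACGTG, so these motifs can overlap. These matches describe letters only.

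Per transcript length, *Gapdh* had the highest mean level of the 10 enzymes in WT and came after *Ldha* and *Aldoa* in dyW. In RPM, which scales reads to a library's total of counted reads, and per kilobase, the WT means were 363 ± 278 for *Gapdh*, 341 ± 271 for *Ldha* and 245 ± 254 for *Aldoa* (SD, n = 4). In dyW the order was *Ldha* at 328 ± 210, *Aldoa* at 228 ± 41.7 and *Gapdh* at 160 ± 91.7 (SD, n = 3). These neighbouring levels differed by less than the larger SD of each pair in both genotypes. The lowest mean in both was that of *Pfkm*, at 3.71 ± 1.92 in WT and 3.16 ± 2.80 in dyW. *Pgk1* came next, at 11.5 ± 7.38 and 33.1 ± 20.2. The order differed between libraries. *Gapdh* was the highest of the 10 in WT1, WT2, WT4 and dyW3, but had rank 3 in WT3 and dyW1 and rank 6 in dyW2, and in WT1 and dyW1 the lowest enzyme was *Eno3* in place of *Pfkm*.

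**Figure D1:**
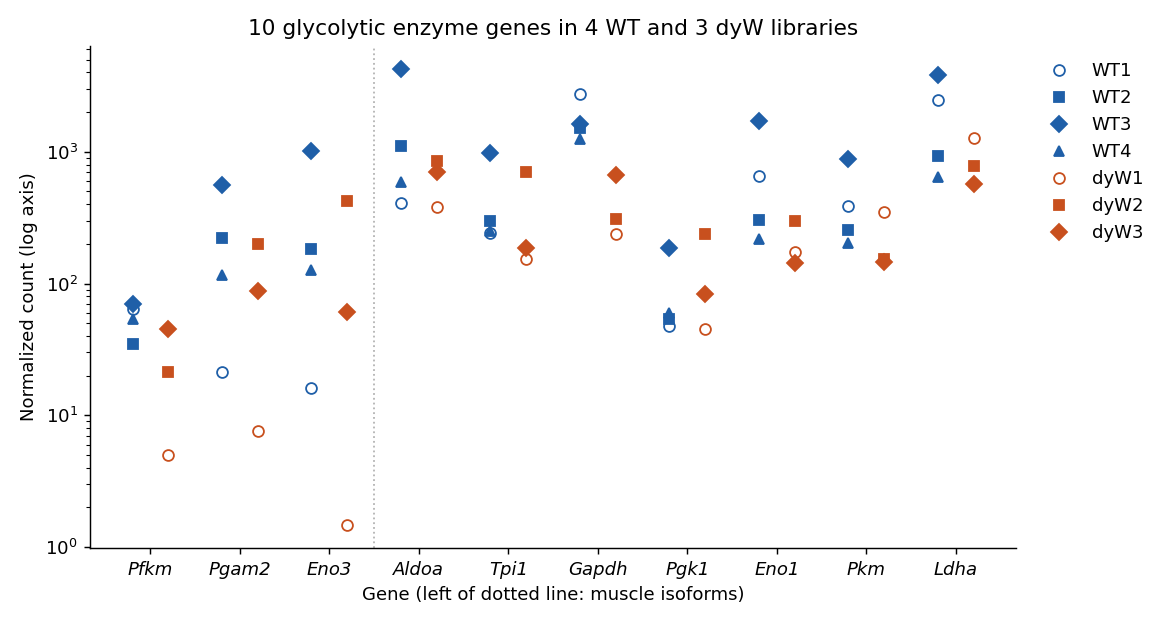
Normalized counts (log axis) of the 10 enzyme genes, with 1 point per library, WT in blue and dyW in orange, and open circles for WT1 and dyW1. The muscle isoforms *Pgam2* and *Eno3* are lowest in the 2 libraries drawn as open circles, and *Gapdh* is the gene for which every WT point lies above every dyW point.

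*Pfkm* (chr15:97990451-98031417, plus strand, GRCm39), whose enzyme commits fructose-6-phosphate to glycolysis, had normalized counts of 64.0, 35.1, 69.7 and 53.5 in WT1 to WT4, and of 4.97, 21.4 and 44.9 in dyW1 to dyW3. WT2 lay below the library labelled dyW3, so the groups overlapped. Only 12 to 34 reads stood behind each WT value. A level was set against background in the odorant and vomeronasal receptor genes, 1330 genes taken here as little used by muscle. Their median was 0.709 to 2.66 reads per kilobase in the WT libraries, 0 in dyW1 and dyW2, and 1.5 in dyW3. *Pfkm* stood 1.22 to 4.55 times above that level in WT, the lowest of the 10 enzymes by the median over the WT libraries.

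*Aldoa* (chr7:126393822-126399923, minus strand), which encodes the aldolase of muscle and many other tissues, had normalized counts of 410, 1098, 4265 and 585 in WT1 to WT4, and of 382, 851 and 702 in dyW1 to dyW3. WT3 was the highest library, and the other WT values bracketed those of dyW2 and dyW3. *Tpi1* (chr6:124787549-124791273, minus strand), whose enzyme interconverts the triose phosphates, had 240, 297, 974 and 249 in WT and 155, 701 and 186 in dyW. The WT and dyW ranges of *Tpi1* overlapped, with the highest value of each genotype in WT3 and dyW2.

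*Gapdh* was the member whose genotypes did not overlap on the deposited scale. Its normalized counts were 2756, 1524, 1614 and 1259 in WT1 to WT4, and 239, 309 and 672 in dyW1 to dyW3. The means were 1788 ± 663 (SD, n = 4) and 407 ± 232 (SD, n = 3), a log2 difference of −2.21 ± 0.50 (SE) on log2(normalized count + 1). Such a pattern, with every WT library above every dyW library, held for 31.5% of all genes tested. *Gapdh* was also the 1 member of 10 that passed an adjusted p under 0.01 with a log2 fold change under −1.5 in limma, as did 18.7% of all genes. None of the 10 passed in the other direction, as did 0.0659% of all genes. Since *Gapdh* was selected on this contrast, the counts describe it and are no evidence about the pathway. It no longer passed when any single library other than dyW3 was left out.

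The position of *Gapdh* depended on the scale. In RPM it stood at 1098, 383, 354 and 227 in WT1 to WT4 and at 171, 133 and 376 in dyW1 to dyW3, so the genotypes overlapped through the library labelled dyW3. Without that library, both dyW values lay below every WT value. On this scale 0 of the 10 enzymes had every WT library above every dyW library, against 23.2% of all genes. The total it divides by was itself uneven, because the 18S ribosomal RNA gene *Rn18s-rs5* took 45.1% of counts in WT4 and 4.78% to 12.8% in the other WT libraries, against 0.0461% to 4.76% in dyW. Mitochondrial genes took another 13.9% to 52.8% of counts in WT and 3.30% to 36.4% in dyW.

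When the 10 most abundant other genes (*Rn18s-rs5*, 7 mitochondrial genes, *Hbb-bs* and *Col2a1*) were left out of the total, *Gapdh* made up 1831, 1094, 848 and 979 RPM in WT1 to WT4 and 186, 207 and 462 in dyW1 to dyW3. The genotypes then lay apart again, with a dyW mean at 24.0% of the WT mean. The other 9 enzymes overlapped on this scale, chosen after seeing the data, and 29.0% of all genes had every WT library above every dyW library.

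Within the pathway, *Gapdh* equalled 64.1%, 45.1%, 11.96% and 55.9% of the summed normalized counts of the other 9 enzymes in WT1 to WT4, and 10.04%, 8.42% and 33.1% in dyW1 to dyW3. WT3 fell below the library labelled dyW3, and the dyW1 and dyW2 values lay below all 4 WT values. Against *Actb*, another common reference, *Gapdh* stood at 34.3%, 20.8%, 5.80% and 28.3% in WT and at 8.81%, 14.6% and 24.0% in dyW. On this ratio WT3 was the lowest of the 7 libraries. Against *Ppia*, a further reference, *Gapdh* stood at 507%, 81.9%, 30.2% and 67.3% in WT and at 43.2%, 19.3% and 36.9% in dyW. There dyW2 was the lowest, and the genotypes overlapped on both ratios. Of 13 housekeeping genes, 0 passed the limma thresholds in either direction. Of all genes 18.7% were called lower, but only 2.43% of those averaging 50 to 1000 normalized counts and 3.77% of those of 1000 or more. The median log2 difference of the 13 was −0.55. It was −1.99 over all genes, 0.21 over those of 50 to 1000 and −0.76 over those of 1000 or more. The 10 enzymes together made up 0.281%, 0.123%, 0.332% and 0.0633% of all counts in WT1 to WT4 and 0.187%, 0.172% and 0.151% in dyW1 to dyW3.

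**Figure D2:**
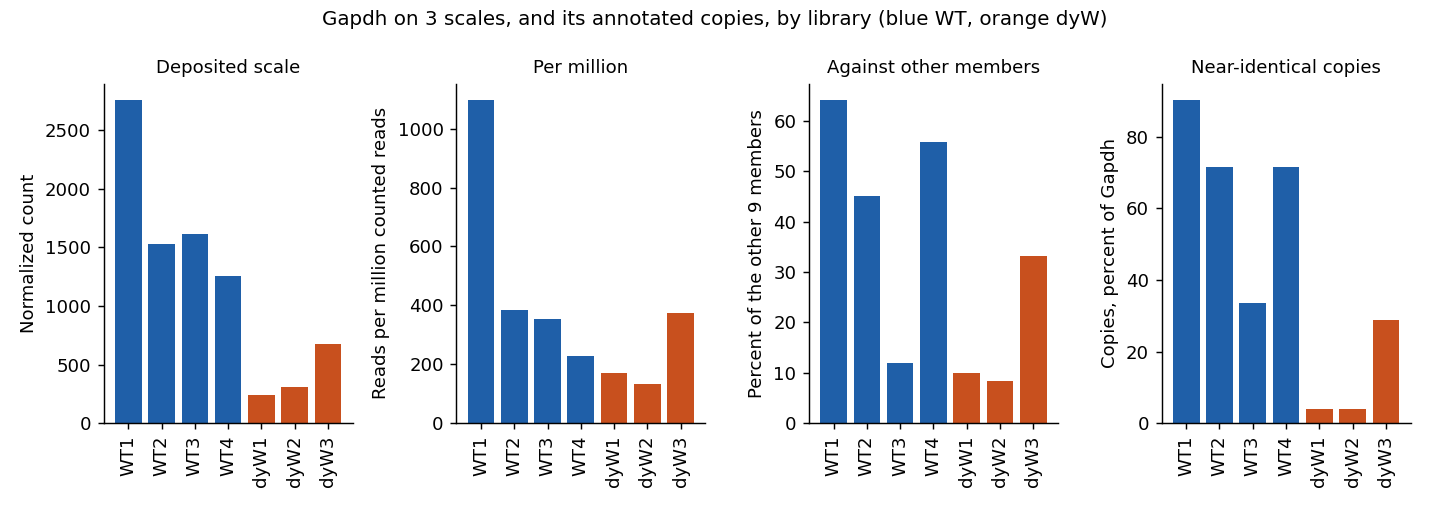
*Gapdh* in each of the 7 libraries as normalized count, as RPM (reads scaled to the library total) and as percent of the other 9 enzymes, and the summed counts of its near-identical annotated copies as percent of *Gapdh*; WT bars are blue and dyW bars orange. The genotypes are apart on the first and the last panel (33.5% to 90.3% in WT against 3.87% to 28.8% in dyW for the copies) and overlap on the other two.

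*Gapdh* has many processed copies in the mouse genome, and reads were assigned to genes only where they mapped uniquely. On GRCm39 the gene lies at chr6:125135289-125143518 on the minus strand, overlapped on the other strand by *Iffo1*, and the strand setting of the counting is not given in the sources used here. In GENCODE, 79 annotated genes had at least 80% of a transcript aligned to *Gapdh* over at least 300 bases at an identity of at least 95%, and 57 of them were in the table. The summed reads on these 57 copies were 467, 404, 264 and 286 in WT1 to WT4, beside 517, 565, 787 and 400 reads on *Gapdh* itself. In dyW1 to dyW3 the copies held 95, 98 and 396 reads, beside 2457, 2442 and 1376 on *Gapdh*. The copies thus equalled 90.3%, 71.5%, 33.5% and 71.5% of *Gapdh* in WT and 3.87%, 4.01% and 28.8% in dyW, and every WT library lay above every dyW library. At the level of the receptor genes the same 56.4 kilobases of copies would hold 40.0, 150, 106 and 112 reads in WT1 to WT4, 0 in dyW1 and dyW2, and 84.6 in dyW3. Adding the copies to the gene gave normalized counts of 5246, 2613, 2156 and 2159 in WT and of 249, 321 and 865 in dyW, which also did not overlap. The part of the copies in the difference of *Gapdh* was not tested. By the same criteria the table held 1 copy of *Eno1*, *Eno1b*, at 1.36% to 9.73% of *Eno1*, and 1 copy of *Pkm* at 0.0816% to 6.85% of *Pkm*, and none of the other 7 enzymes.

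*Pgk1* (chrX:105230706-105247305, plus strand), whose enzyme transfers phosphate to ADP, was the member with a positive log2 difference on the deposited scale, at 0.40 ± 0.78 (SE). It had normalized counts of 48.0, 53.9, 185 and 59.8 in WT1 to WT4 and of 45.5, 237 and 83.5 in dyW1 to dyW3. The WT range lay within the dyW range. The WT values rested on 9 to 90 reads.

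*Pgam2* and *Eno3*, the muscle mutase and enolase, varied more among libraries of the same genotype than between genotypes. *Pgam2* (chr11:5751636-5753760, minus strand) had normalized counts of 21.3, 221, 562 and 116 in WT1 to WT4 and of 7.60, 200 and 87.4 in dyW1 to dyW3. *Eno3* (chr11:70546593-70553340, plus strand) had 15.99, 183, 1017 and 126 in WT and 1.46, 420 and 60.6 in dyW. For both genes the lowest value of each genotype lay in WT1 and dyW1, the libraries with the smallest share of myofiber markers, and the highest in WT3 and dyW2. *Eno1* (chr4:150321073-150337027, plus strand), the widely expressed enolase, had 650, 305, 1719 and 217 in WT and 173, 299 and 144 in dyW. WT1 was thus the second highest of the 4 WT libraries for *Eno1* and the lowest of them for *Eno3*.

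*Pkm* (chr9:59563364-59586663, plus strand), which encodes pyruvate kinase of muscle and of many dividing cells, had normalized counts of 389, 256, 884 and 201 in WT1 to WT4 and of 348, 155 and 147 in dyW1 to dyW3. *Ldha* (chr7:46490899-46505061, plus strand), which encodes the lactate dehydrogenase subunit common in fast muscle, had 2458, 933, 3820 and 645 in WT and 1267, 782 and 573 in dyW. Both were highest in WT3 and, within dyW, in dyW1, the library with the smallest share of counts on myofiber markers. Per transcript length the log2 ratio of *Ldha* to *Pkm* stayed between 2.30 and 3.28 in all 7 libraries, with means of 2.70 ± 0.43 in WT (SD, n = 4) and 2.67 ± 0.25 in dyW (SD, n = 3). Their profiles were the most alike of the 45 pairs among the 10 enzymes, with a root mean square difference of 0.31 between centred log2 values over the 7 libraries.

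The muscle isoforms were set against the general ones as log2 ratios per transcript length within each library, with 1 added to each normalized count. *Eno3* to *Eno1* stood at −4.86, −0.33, −0.36 and −0.38 in WT1 to WT4 and at −5.74, 0.89 and −0.83 in dyW1 to dyW3. *Pgam2* to *Pgam1* stood at −1.22, 2.99, 3.11 and 2.33 in WT and at −0.83, 2.45 and 1.70 in dyW. In both ratios WT1 and dyW1 lay below the other 5 libraries, and the genotypes overlapped. *Pfkm* to the sum of *Pfkl* and *Pfkp* stood at −1.39, −1.70, −1.38 and −1.499 in WT and at −4.43, −3.02 and −1.13 in dyW, so here WT1 lay among the other WT libraries. The library labelled dyW3 had the highest of these values, whereas dyW1 and dyW2 had the lowest. Together *Pfkm*, *Pgam2* and *Eno3* made up 1.44%, 8.96%, 10.9% and 8.42% of the summed counts of the 10 enzymes in WT and 0.535%, 16.1% and 7.15% in dyW.

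**Figure D3:**
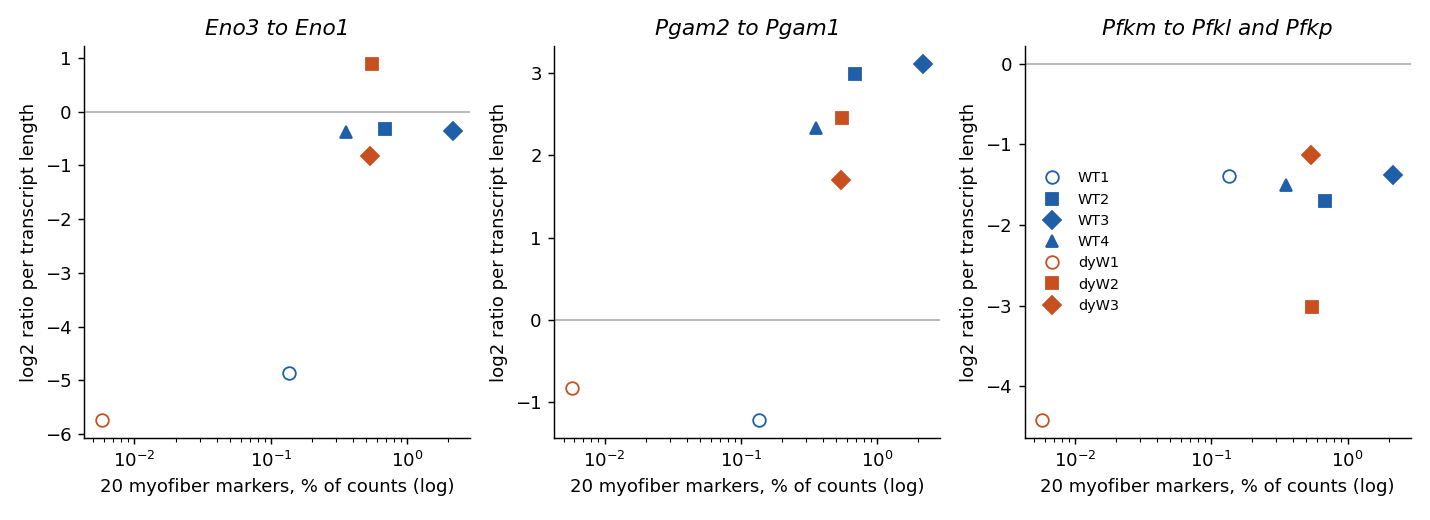
Log2 ratio per transcript length of a muscle isoform to its general counterpart (vertical axis) against the share of counts on 20 myofiber markers (log axis), with 1 point per library, WT in blue and dyW in orange. WT1 and dyW1, the open circles with 0.135% and 0.00576% of counts on the markers, have the lowest *Eno3* to *Eno1* and *Pgam2* to *Pgam1* ratios, while in the third panel WT1 stands with the other WT libraries.

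Leaving out WT1 and dyW1, an alternative chosen after seeing the data, moved the log2 differences of the muscle isoforms from −1.58 to −0.69 for *Pfkm*, from −1.33 to −0.88 for *Pgam2* and from −1.83 to −0.84 for *Eno3*. That of *Gapdh* moved from −2.21 to −1.68. Single libraries moved 2 of these genes further. Without dyW1 alone the log2 difference was −0.013 for *Pgam2* and 0.18 for *Eno3*, and without dyW2 alone it was −2.29 and −3.53. The part of fiber content in these differences was not tested.

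On the deposited scale 9 of the 10 enzymes had a negative log2 difference, from −2.21 for *Gapdh* to −0.41 for *Tpi1*, and *Pgk1* a positive one. The median of the 10 was −1.11 beside a median of −1.99 over all 25791 genes tested, so 9 of the 10 lay above the median gene and *Gapdh* lay below it by 0.23. The median itself moved with abundance, from −2.58 in genes with a mean of 5 to 50 normalized counts to 0.21 in genes of 50 to 1000 and −0.76 in the 106 genes of 1000 or more. Among these 106 genes *Gapdh* had the 23rd lowest log2 difference, and 4 of the 106 were called lower.

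With equal totals in all libraries, the median over all genes was −1.24, and the 10 enzymes split into 5 below and 5 above 0, with *Gapdh* at −1.07 ± 0.65 (SE). Relative to that median all 10 were positive, *Gapdh* by 0.18. After quantile normalization the median over all genes was 0.06, and 9 of the 10 enzymes lay below both 0 and this median, led by *Gapdh* at −2.57 ± 0.65 and *Eno1* at −2.16 ± 0.60 (SE). *Aldoa*, *Tpi1*, *Pkm* and *Ldha* changed sign between the last 2 scalings, with 0.40 and −1.29 for *Aldoa*, 0.73 and −1.18 for *Tpi1*, 0.28 and −1.57 for *Pkm* and 0.25 and −1.20 for *Ldha*. *Gapdh* stayed negative under each scaling tried, and *Pgk1* stayed positive.

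**Figure D4:**
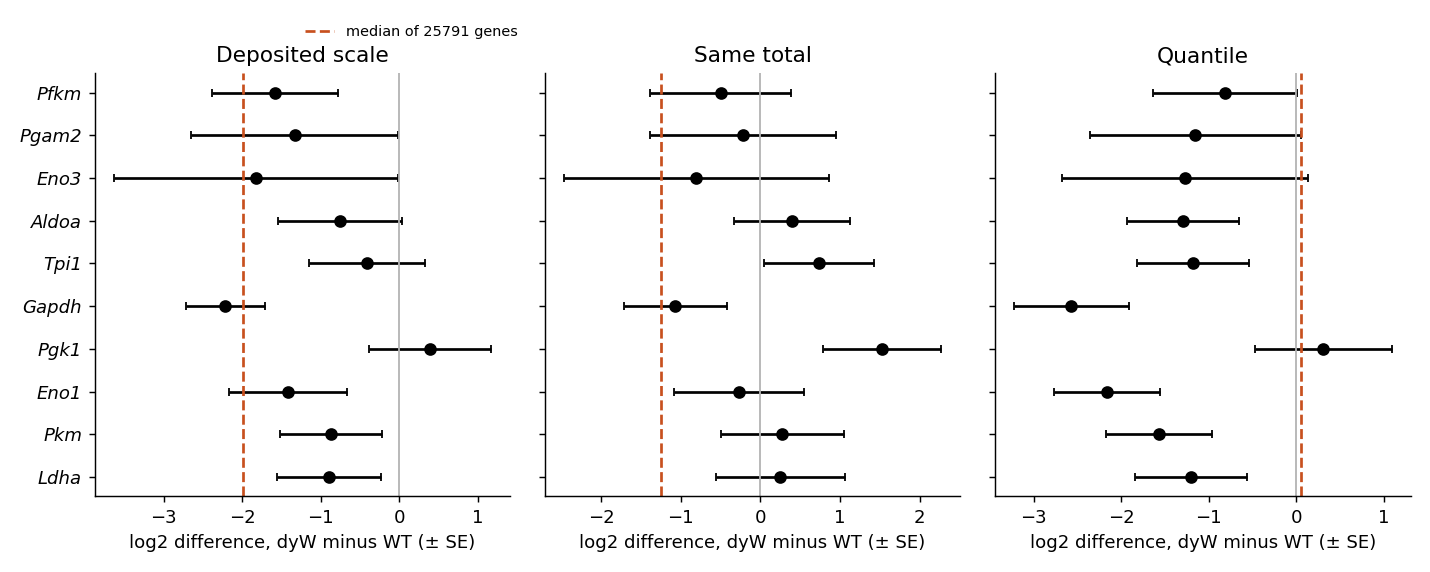
Log2 difference of each enzyme, dyW minus WT, with its SE, on the deposited scale, at equal library totals, and under quantile normalization; the dashed line is the median over the 25791 genes tested. *Gapdh* is the most negative enzyme in each panel (−2.21, −1.07 and −2.57), while its place relative to the dashed line changes.

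Of the 6102 other genes with 50 or more normalized counts on average, those whose centred log2 profile over the 7 libraries was most like that of *Gapdh* were *Cep97*, *Hhat*, *Ddx58*, *Gnl3l* and *Gga2*, with root mean square differences of 0.44, 0.44, 0.50, 0.52 and 0.53. None of these encodes a glycolytic enzyme. Among the enzymes the nearest was *Pfkm*, at 0.65, which lies below that abundance, followed by *Eno1*, at 1.08, and the farthest was *Eno3*, at 2.62.

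Beyond the 10 enzymes, 77 genes of linked steps were in the table, and 76 were tested. In limma 11 of the 76 were called lower in dyW and 0 higher, against 18.7% and 0.0659% of all genes, and 3 had a higher level at an unadjusted p under 0.05, as did 2.81% of all genes. All 11 had a dyW mean below 5 normalized counts and passed the filter only through the WT libraries, where 1 read was worth 2.05 to 5.33 normalized counts, so their number is a description and no support for a difference of the lists. Voom on the recovered reads called 6 of the 76 lower and 0 higher. The number called lower was 0 without WT2, WT4 or dyW2, 4 without dyW1 and 6 without WT1. The median log2 difference of the 76 was −1.10, beside −1.99 over all genes. At equal totals it was 0.017 beside −1.24, and after quantile normalization 0.00056 beside 0.06. Of the other isoforms of the members' steps, 4 of 15 were called lower, and of the genes of glucose uptake and phosphorylation, 3 of 9. The call was also made for 1 of 16 glycogen genes, 2 of 14 glycolysis regulators and 1 of 22 genes of pyruvate and lactate fate.

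*Phkg1*, which encodes the muscle catalytic subunit of phosphorylase kinase, the activator of glycogen breakdown, stood farthest above the level of the receptor genes in WT among the 11 called genes. Its normalized counts were 181, 89.0, 32.8 and 66.1 in WT1 to WT4 and 0.195, 0.253 and 5.37 in dyW1 to dyW3. The log2 difference was −5.20 ± 0.91 (SE), with an adjusted p of 0.00424 in limma. The call was lost in 12 of 16 alternatives, over which the adjusted p in limma ranged from 0.0018 to 0.109, among them equal totals (0.0206), quantile normalization (0.0939) and the removal of WT1, WT2, WT4, dyW1 or dyW2. Its WT level was 3.48 to 19.5 times that of the receptor genes, on 16 to 34 reads.

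The other 10 called genes were near the level of the receptor genes in WT, at 0.315 to 3.04 times that level and on 1 to 15 reads per library. They included *Slc2a4*, the insulin-regulated glucose transporter of muscle, with normalized counts of 26.7, 8.09, 20.5 and 34.6 in WT and 0, 1.52 and 0 in dyW (log2 difference −3.94 ± 0.78, adjusted p = 0.0056 in limma). Its call was lost in 12 of 15 alternatives, with an adjusted p in limma of 0.745 after quantile normalization. *Aldoc*, the brain aldolase, had 32.0, 24.3, 18.5 and 31.5 in WT and no read in any dyW library. *Mlxipl*, a glucose-responsive transcription factor of liver, *Slc2a12*, another glucose transporter, and *Ldhc*, the testis lactate dehydrogenase, likewise had no dyW read, and no fold is given for these 4 genes. *Hk3*, *Fbp2*, *Eno2* and *Gpd1* were also called, with log2 differences of −3.74 to −3.22 and adjusted p from 0.0054 to 0.00989 in limma. These calls were lost in 11 of 15 alternatives for *Hk3*, 9 of 13 for *Fbp2*, 14 of 15 for *Eno2* and 8 of 14 for *Gpd1*. The log2 differences of *Slc2a4* and of these genes also rest on WT values near the level of the receptor genes. The WT levels of *Ldhc* were 0.315 to 2.01 times that of the receptor genes. The part of this background in the 11 calls was not tested.

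The general isoforms with more reads did not pass the test. *Pgam1* had 107, 56.6, 133 and 47.2 normalized counts in WT and 30.6, 74.9 and 55.2 in dyW, and *Pfkl* had 117, 53.9, 119 and 69.2 against 108, 84.0 and 35.2. *Pfkp*, the platelet form, had 58.6, 67.4, 71.8 and 91.3 against 22.3, 105 and 69.3. *Gpi1*, whose enzyme precedes phosphofructokinase, had 123, 111, 146 and 113 against 154, 76.4 and 75.7. All 4 overlapped between the genotypes, with log2 differences from −0.64 to −0.31 and adjusted p from 0.484 to 0.743 in limma. At equal totals their log2 differences were positive, from 0.49 to 0.83. After quantile normalization they were negative, from −0.83 to −0.48, and none passed on either scaling. *Ldhb*, the heart-type lactate dehydrogenase subunit, ranged from 26.7 to 213 in WT and stood at 26.9, 253 and 0.488 in dyW1 to dyW3, where dyW3 held 1 read.

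Of the most abundant genes of the other lists, none passed either. *Hk2*, the insulin-regulated hexokinase of muscle, had 144, 70.1, 28.7 and 62.9 in WT and 177, 15.7 and 3.42 in dyW, and *Slc2a1*, the widely expressed glucose transporter, had 245, 56.6, 36.9 and 37.8 against 162, 43.3 and 9.77. *Hif1a*, the oxygen-regulated activator of glycolytic genes, had 208, 121, 648 and 164 against 553, 202 and 266, and its partner *Arnt* 160, 78.2, 61.5 and 44.1 against 164, 35.2 and 40.0. Each of these 4 overlapped between the genotypes. *Hif1a* and the next 3 genes had higher means in dyW without passing. *Mdh1*, of the malate shuttle, had means of 145 ± 139 in WT (SD, n = 4) and 427 ± 341 in dyW (SD, n = 3), and *Pdhb*, of pyruvate dehydrogenase, 202 ± 154 and 356 ± 300. *Phkb*, a regulatory subunit of phosphorylase kinase, had means of 60.5 ± 22.5 and 92.5 ± 35.8. Log2 differences on the deposited scale were 0.44 for *Hif1a*, 1.54 for *Mdh1*, 0.74 for *Pdhb* and 0.60 for *Phkb*. After quantile normalization they were −0.17, 1.12, 0.04 and 0.51 in the same order.

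The 3 linked genes with a higher level at an unadjusted p under 0.05 were *Ugp2*, *Bpgm* and *Dld*, of which *Bpgm* and *Dld* are named after their values were seen. *Ugp2*, which makes the sugar donor of glycogen synthesis, had 37.3, 75.5, 195 and 50.3 in WT and 153, 356 and 243 in dyW (log2 difference 1.69 ± 0.70, adjusted p = 0.0947 in limma). *Bpgm*, the bisphosphoglycerate mutase known from red cells, had 15.99, 64.7, 34.9 and 40.9 against 75.2, 202 and 147 (1.87 ± 0.69, adjusted p = 0.068 in limma). *Dld*, a subunit of pyruvate dehydrogenase, had 26.7, 80.9, 77.9 and 66.1 against 125, 366 and 161 (1.73 ± 0.66, adjusted p = 0.0756 in limma). At equal totals the log2 differences were larger, 2.83 for *Ugp2*, 3.01 for *Bpgm* and 2.87 for *Dld*, with adjusted p of 0.0165, 0.0142 and 0.0135 in limma, also without passing. After quantile normalization they were 1.37, 2.07 and 1.43, with adjusted p of 0.422, 0.282 and 0.426 in limma. The median over all genes averaging 50 to 1000 normalized counts, as these 3 do, moved likewise. It was 0.21 on the deposited scale, 1.34 at equal totals and 0.095 after quantile normalization. For *Bpgm* and *Dld* every dyW library lay above every WT library, as for 3.28% of all genes. The WT values of these 3 genes rested on 3 to 95 reads per library.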

How the data were processed

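RNA of 7 lysates of E17.5 muscle fibers, 4 WT and 3 dyW, was made into full-length cDNA (SMART-seq2, Nextera XT, no molecular identifiers, so limits for counts cover counting error only) and sequenced. Per the study's methods and processing notes, the authors trimmed reads (cutadapt), aligned them to GRCm39 (STAR), assigned uniquely mapped reads to genes (FeatureCounts) and divided counts by DESeq2 size factors. The deposited normalized counts are written with decimal commas. Versions and the annotation release are not given in the sources used here. A second deposited table, of the authors' own fold changes and P-values, was not used. The labels name separate fetuses only by number, so P-values measure the spread between these libraries.

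Groups follow the sample labels. All values in each library were whole multiples, within 0.05 read, of the value of 1 read (2.05 to 5.33 normalized counts in WT, 0.0974 to 0.488 in dyW), which gave the reads. The 25791 genes averaging 5 or more normalized counts were fitted on log2(normalized count + 1), a scale that understates changes of low genes, by limma 3.58.1 under R 4.3.3, using a trended eBayes prior; P-values were adjusted after Benjamini and Hochberg. Called genes had an adjusted p under 0.01 and an absolute log2 fold change over 1.5. In simulated data with these read numbers, 200 of 200 genes changed 16-fold were recovered and 0 unchanged genes were called, among 25480 tested. The simulated libraries shared the same mean profile, and the changed genes averaged 50 or more normalized counts. The simulation lacked the differences in composition between these libraries, so it cannot tell how many of the calls made here are right. Lengths are those of the canonical transcripts of GENCODE vM39, found for 99.2% of the 31531 genes. Copies of *Gapdh* were found with minimap2 2.31. Python 3.11.15, numpy 2.4.6, pandas 2.3.3 and matplotlib 3.10.9 were used.

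The 10 enzymes and all lists (5 of linked genes, and of myofiber, housekeeping, fibroblast, endothelium, erythroid, immune, cartilage, and neural and Schwann markers) were chosen with earlier results of these data known. Named were the 10 enzymes, each called linked gene except 1 that is counted but not reported here by name, the 2 most abundant per linked list, *Pgam1*, *Pfkl*, *Pfkp*, *Aldoc*, *Eno2*, *Ldhb* and *Gpi1*, *Lama2*, markers at 0 in a group, and the 5 genes nearest to *Gapdh* in profile; exceptions are stated. Alternatives comprised a pseudocount of 0.1 or 10, dropping the filter or raising it to 50, equal totals, quantile normalization, a replicate block, each library left out, an adjusted p under 0.05, *Aldoa* left out of a sum, and the 10 most abundant other genes left out of the total. Voom on the recovered reads, leaving out WT1 and dyW1 together, and levels of single genes without the 10 most abundant others were chosen after seeing the data.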

Additional observations from a re-analysis of the deposited data

Results flagged for a closer look

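In the WT libraries 4 of 17 values described had an extreme library by Dixon's criterion, in which the gap to the nearest library is compared with the whole range of 4 libraries. The rate of about 1 in 20 by chance holds for independent, normally distributed values. The values here share the same 4 libraries, so no excess over chance is read from them. WT3 was the high extreme of the normalized counts of *Tpi1*, at 974 (gap 0.92 of the range), of *Pgk1*, at 185 (0.91), and of *Eno3*, at 1017 (0.83). WT3 also held the largest share of counts on myofiber markers, 2.15%. WT1 was the low extreme of the log2 ratio of *Eno3* to *Eno1*, at −4.86 (gap 0.99 of the range), and it held 17.5% of counts on cartilage markers and 0.135% on myofiber markers. The part of these markers was not tested. The criterion was not applied to the 3 dyW libraries.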

How the results depend on the processing

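Counts of calls depended on the processing. Against 4830 genes called lower, 17 higher and 11 linked genes lower, no gene of any kind was called with all libraries at the same total, with a pseudocount of 10, at a mean of at least 50, or without WT1 and dyW1, although 10249, 10626, 1253 and 10924 genes had an unadjusted p under 0.05. Quantile normalization left 2 lower and 0 higher. No filter gave 10 higher and a pseudocount of 0.1 gave 41 higher. Voom gave 5325 lower, 68 higher and 6 linked lower. At an adjusted p under 0.05, 7625 were lower, 259 higher and 17 linked genes lower. With 1 library left out the calls ranged from 0 to 6698 lower, 0 to 25 higher and 0 to 14 linked lower, and 0 genes were called without WT2, WT4 or dyW2. In every setting 0 linked genes were called higher. Of the 10 named linked genes that were called, each lost its call in most alternatives, from 8 of 15 for *Aldoc* and *Mlxipl* to 14 of 15 for *Eno2*, and after quantile normalization *Fbp2* had a log2 difference of 0.58.

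With the replicate number as a block, 1 gene was called lower, 0 higher and 0 of the linked genes. Deviations of same-numbered libraries correlated at 0.147, −0.049 and −0.088, within the range of differently numbered pairs (−0.122 to 0.225). So few correlations cannot settle whether the numbers pair the libraries.

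*Gapdh* was negative in all 16 refits (−2.65 to −1.02) and called in 3 of them, no filter, a pseudocount of 0.1 and without dyW3. *Pgk1* was positive in 15 of 16, and *Pfkm*, *Pgam2* and *Eno1* negative in all. *Aldoa*, *Tpi1*, *Pkm*, *Ldha* and *Eno3* took both signs. With *Aldoa* left out of the sum, the dyW minus WT difference of *Gapdh* as a percent of the other enzymes was −33.1 in place of −27.1 percentage points. With the 10 most abundant other genes left out, the 10 enzymes made up 0.469%, 0.352%, 0.794% and 0.273% of counts in WT and 0.204%, 0.267% and 0.186% in dyW, a difference of −0.253 in place of −0.0298 percentage points. The dyW minus WT difference in the log2 ratio of *Eno3* to *Eno1*, −0.41, turned to 1.51 without dyW1 and 0.17 with a pseudocount of 10, and that of *Pgam2* to *Pgam1* from −0.70 to 0.27 without dyW1. The edgeR and DESeq2 alternatives were not run, and voom on the recovered reads was used in their place. At 470804 counted reads, WT1 gave 3 to 517 reads per enzyme, so its low values carry the widest counting error.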
